A study of Mus musculus with 12 samples.

Results

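Transcripts of 10 transcription factors of the AP-1 and immediate-early class were followed in B16F10 cells, an established mouse melanoma line. The cells were labelled as WT or as knockouts of Ep300, Crebbp or both. The members, set by gene symbol, and the other gene lists below were chosen with earlier results of these data known. The members were Fos, Fosb, Fosl1 and Fosl2 of the FOS family, Jun, Junb and Jund of the JUN family, and Atf3, Egr1 and Ier2. All 10 were found among the 54752 genes of the count table, and all 10 passed the filter on low counts that left 18434 tested genes. The labels give 4 genotypes with 3 libraries each: WT, here called control, Ep300 knockout, Crebbp knockout, and Ep300 Crebbp knockout, here called double knockout. Every group was grown in DMEM with serum, with no stimulus named. The labels do not say how the genes were disrupted, whether a knockout is a clone or a pool, or if replicate libraries came from different cultures, so p-values measure only the spread between these libraries, which may be technical.

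AP-1 is a dimer of basic leucine zipper (bZIP) proteins, classically a FOS protein with a JUN protein, that binds a short palindromic DNA element. Genes such as Fos, Egr1 and Ier2 are called immediate-early because growth factors and stress switch them on within minutes through kinases that act on factors already present, among them SRF, its ELK partners and CREB. p300, encoded by Ep300, and CBP, encoded by Crebbp, are closely related lysine acetyltransferases, and CBP was named for its binding to CREB. In melanoma, AP-1 activity is known to be high in cells that have lost the pigmented, MITF-driven state.

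Libraries held 64257251 to 85604243 counts. The member with the fewest reads in a library was at 8 counts (Fosb and Fosl1) and the one with the most at 9429 (Egr1). Crebbp transcript fell in the libraries labelled Crebbp knockout by 0.91 ± 0.12 on the log2 scale (SE, edgeR adjusted p = 0.000527). Ep300 was at -0.15 ± 0.10 in those labelled Ep300 knockout (adjusted p = 0.376). In double knockout Ep300 rose by 0.65 ± 0.10 (adjusted p = 7.33e-05) and Crebbp was at -0.02 ± 0.11 (adjusted p = 0.922). Gene-level counts do not show whether a transcript still encodes protein, and directions below are those of the labels. The 7 melanocyte markers Mitf, Sox10, Pmel, Tyr, Tyrp1, Dct and Mlana summed to 19400 to 21400 CPM (counts scaled to a common library size, with TMM) in control, 14300 to 15000 with Ep300 lost, 18400 to 19200 with Crebbp lost and 6530 to 6690 with both lost. In Ep300 knockout 6 of these 7 markers fell (adjusted p under 0.05), beside 8.83% of all tested genes. In double knockout all 7 fell, beside 24.6% of all tested genes. In such bulk samples fewer cells of a type and less RNA per cell cannot be told apart. The summed fibroblast markers (3 of 7 tested) stood at 6.38 to 8.14 CPM in control, 14.5 to 19.4 with Ep300 lost, 8.57 to 12.3 with Crebbp lost and 12.7 to 13.8 with both lost, where Dcn and Lum were at 0. Of the 3 tested, 2 rose in double knockout, Col1a1 (1.64 ± 0.17) and Pdgfra, and Col1a2 fell (-3.18 ± 0.21). Immune markers (2 of 7 tested) summed to 3.20 to 4.34 CPM in control and 6.06 to 7.21 in double knockout, and in each of these groups 4 of 7 were at 0, Ptprc, the pan-leukocyte antigen, among them. Of the tested pair, Cd68 rose in double knockout (1.73 ± 0.13) and Lyz2 fell (-1.59 ± 0.30). Endothelial and epithelial markers summed to at most 1.07 CPM in any group. Mitochondrial transcripts took 4.39 to 5.31% of counts in control, 4.39 to 5.15% with Ep300 lost, 3.81 to 6.39% with Crebbp lost and 3.02 to 3.62% with both lost. The part of these marker and mitochondrial values in the results below was not tested.

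In double knockout 9 of the 10 factors rose, by 2.59-fold (Ier2) to 31.5-fold (Egr1) (edgeR quasi-likelihood test with Benjamini-Hochberg adjustment over all tested genes, adjusted p under 0.05, n = 3 per group), where 24.7% of all tested genes were called higher in the same comparison. In Ep300 knockout 8 of 10 rose, by 1.34-fold (Jun) to 5.33-fold (Egr1), against 7.27% of all tested genes. In Crebbp knockout 2 of 10 rose, Egr1 by 2.23-fold and Jund by 1.40-fold, against 1.52% of all tested genes. Jund is lost in 5 of 20 alternatives, the replicate block among them, which leaves 1 of 10, and the count runs from 1 to 3 when each library is left out in turn. Over all genes 577 were called in Crebbp knockout, and omitting a library brought that to 365 (control replicate 1), 246 (control replicate 3), 299 (Crebbp-knockout replicate 1) or 214 (Crebbp-knockout replicate 2). Only Fosl1 was called in none of these 3 comparisons with control, and it was the member with the lowest CPM in double knockout. The members had a median log2 fold change of 0.57 with Ep300 lost, 0.12 with Crebbp lost and 2.10 with both lost, beside medians over all tested genes of 0.01, -0.01 and -0.02. These 3 comparisons share their control libraries. All 3 libraries of a group lay above all 3 of control for 8 members in Ep300 knockout (13.8% of tested genes), 4 with Crebbp lost (10.9%) and 10 with both lost (30.1%). The same held for 7 members in Ep300 against Crebbp knockout (13% of tested genes), 9 in double against Ep300 knockout (24.4%) and 9 in double against Crebbp knockout (28.4%).

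**Figure D1:**
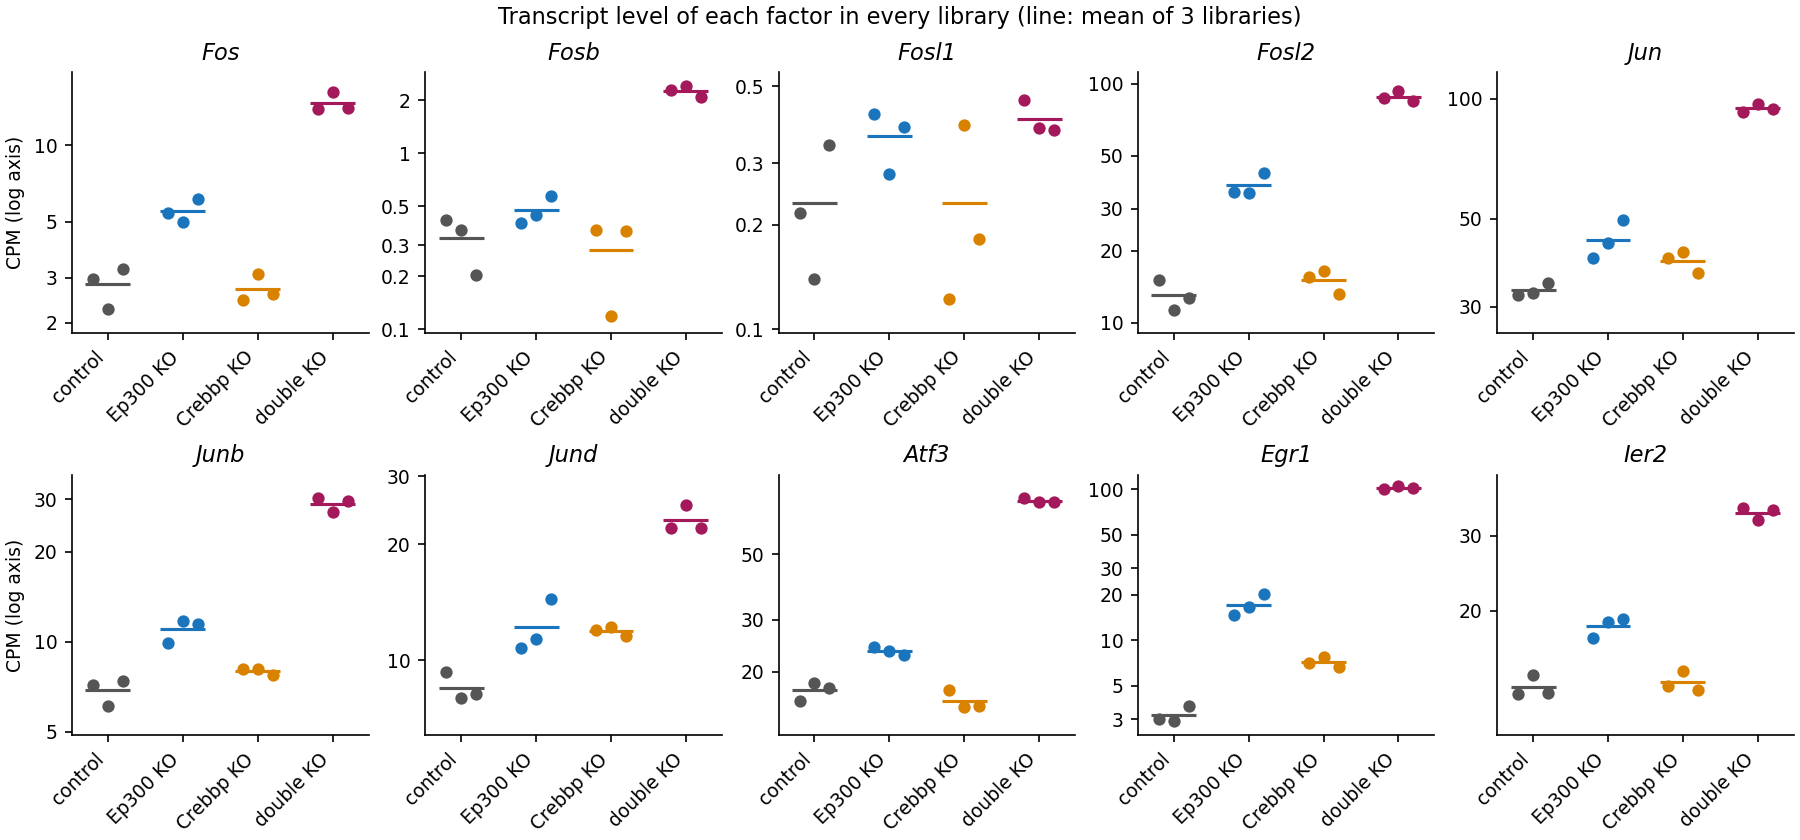
CPM of each of the 10 factors on a log axis in each of the 12 libraries (points) with the mean of each group of 3 (line); each panel has its own range. The double-knockout points lie above every other library for 9 of the 10 factors, Fosl1 being the exception, and the Egr1 panel spans the widest range, from 2.94 to 104 CPM.

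The promoters of those members that had a RefSeq window used here and that hold a bZIP element or the core of one are shown. In Fos, Fosb, Junb and Atf3 only the core TGACG matched, which is a part of a full element. Binding was not measured. Fosl2 and Jund, which also rose in double knockout, had no such match and are not shown. A link between these elements and the changes was not tested. The Atf3 and Fosl2 windows lie inside the span of the counted gene, at starts downstream of its outermost one, and the Jund window lies wholly upstream of the counted gene. The windows run from 250 bases before to 50 bases after the annotated start (RefSeq, GRCm38.p6, which is the mm10 assembly of the counts). Of the 10 members, 7 had a window that was used: Fos, Fosb, Fosl2, Jun, Junb, Jund and Atf3. No window was used for Egr1, Fosl1 and Ier2, which does not mean that RefSeq lacks them. The counts of matches below therefore do not describe the promoters of Egr1, Fosl1 and Ier2. Capitals mark matches, on either strand, to the CRE core TGACG or to TGACNTCA, a cAMP response element with any central base. A match to the second with G in the centre also holds the first.
Fos (chr12:85473640-85473939, plus strand): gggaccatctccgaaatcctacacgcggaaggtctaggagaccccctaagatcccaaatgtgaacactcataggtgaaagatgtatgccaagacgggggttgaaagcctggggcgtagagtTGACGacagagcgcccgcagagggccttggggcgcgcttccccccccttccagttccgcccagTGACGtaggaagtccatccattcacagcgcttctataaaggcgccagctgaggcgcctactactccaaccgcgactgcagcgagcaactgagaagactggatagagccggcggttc
Fosb (chr7:19309996-19310295, minus strand): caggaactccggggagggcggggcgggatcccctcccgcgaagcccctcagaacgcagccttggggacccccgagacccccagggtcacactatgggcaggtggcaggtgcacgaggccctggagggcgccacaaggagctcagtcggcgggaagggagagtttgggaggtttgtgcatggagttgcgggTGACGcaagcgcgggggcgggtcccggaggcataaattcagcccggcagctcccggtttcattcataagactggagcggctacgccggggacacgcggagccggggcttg
Jun (chr4:95052173-95052472, minus strand): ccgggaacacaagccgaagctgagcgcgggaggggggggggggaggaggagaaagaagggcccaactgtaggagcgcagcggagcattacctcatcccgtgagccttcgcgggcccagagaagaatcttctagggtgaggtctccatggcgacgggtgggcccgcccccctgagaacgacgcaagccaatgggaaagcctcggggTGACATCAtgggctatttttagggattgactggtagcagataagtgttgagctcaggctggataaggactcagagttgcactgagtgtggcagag
Junb (chr8:84978699-84978998, minus strand): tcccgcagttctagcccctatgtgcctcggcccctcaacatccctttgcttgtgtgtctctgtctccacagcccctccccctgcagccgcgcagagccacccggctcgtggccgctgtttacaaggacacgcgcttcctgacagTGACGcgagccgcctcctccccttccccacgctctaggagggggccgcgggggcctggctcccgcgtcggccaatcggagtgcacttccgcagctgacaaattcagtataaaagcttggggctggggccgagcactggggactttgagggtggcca
Atf3 (chr1:191183284-191183583, minus strand): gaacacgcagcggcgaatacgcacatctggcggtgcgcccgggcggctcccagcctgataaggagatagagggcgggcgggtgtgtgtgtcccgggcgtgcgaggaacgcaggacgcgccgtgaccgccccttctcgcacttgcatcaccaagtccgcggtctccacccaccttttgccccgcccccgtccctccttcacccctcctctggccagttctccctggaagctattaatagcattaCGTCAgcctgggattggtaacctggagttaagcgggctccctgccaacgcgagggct

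The CRE core TGACG was found in 4 of the 7 windows (Fos, Fosb, Junb and Atf3), and in 20.8% of 32851 promoter windows of the same length. In Fos it lies at -66 to -62 and at -129 to -125 from the start, in Fosb at -60 to -56, in Junb at -106 to -102, and in Atf3 on the reverse strand at -7 to -3. TGACNTCA was found in Jun only, as TGACATCA at -45 to -38, and in 8.83% of all windows. The AP-1 element TGANTCA was in 0 of 7 windows and in 7.81% of all, and the CArG box, bound by SRF, in 0 of 7 and in 1.63% of all. The EGR element GCGGGGGCG was in 2 of 7 windows, at -50 to -42 of Fosb and -79 to -71 of Fosl2, and in 2.91% of all. No match says only that these letters are not in the window, and a match is a description of the sequence.

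Fos, the prototype immediate-early factor (ENSMUSG00000021250, mm10 chromosome 12, 85473890 to 85477273, plus strand), stood at 2.98, 2.27 and 3.24 CPM in control and at 13.9, 16.2 and 14.0 in double knockout. Ep300 knockout held 5.40, 4.99 and 6.14 CPM and Crebbp knockout 2.46, 3.12 and 2.59. Every double-knockout library lay above every Ep300-knockout library and those above all 6 of control and Crebbp knockout, which overlapped each other. Fos rose by 2.37 ± 0.13 on the log2 scale in double knockout (SE, n = 3, adjusted p = 1.52e-09) and by 0.95 ± 0.14 in Ep300 knockout (adjusted p = 0.000133). In Crebbp knockout its log2 fold change was -0.07 ± 0.14 (95% interval -0.38 to 0.24, adjusted p = 0.841).

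Fosl2, which encodes FRA-2 (ENSMUSG00000029135, chromosome 5, 32135801 to 32157842, plus strand), was at 15.1, 11.3 and 12.7 CPM in control, 35.4, 35.0 and 42.5 in Ep300 knockout, 15.6, 16.4 and 13.2 in Crebbp knockout, and 87.0, 93.3 and 84.6 in double knockout. The order of its groups was that of Fos at the top, with control and Crebbp knockout overlapping. It rose by 1.53 ± 0.11 in Ep300 knockout (adjusted p = 9.39e-08), and the double-knockout rise was 2.76 ± 0.11 (adjusted p = 3.88e-11), and was at 0.21 ± 0.11 in Crebbp knockout (adjusted p = 0.364). After Egr1, this was the largest change of a member in Ep300 knockout.

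Fosb, a FOS protein with a strong activation domain (ENSMUSG00000003545, chromosome 7, 19302696 to 19310051, minus strand), was low in the 3 groups other than double knockout. It read 0.419, 0.367 and 0.203 CPM in control, 0.403, 0.448 and 0.572 in Ep300 knockout, 0.366, 0.119 and 0.363 in Crebbp knockout, and 2.29, 2.40 and 2.09 in double knockout. Control, Ep300-knockout and Crebbp-knockout libraries overlapped apart from the Ep300 libraries all lying above those of Crebbp knockout, a difference that was not called (adjusted p = 0.192). Fosb rose in double knockout by 2.77 ± 0.30 (adjusted p = 2.56e-06), and the single knockouts were at 0.53 ± 0.34 (Ep300, adjusted p = 0.349) and -0.21 ± 0.37 (Crebbp, adjusted p = 0.806).

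Fosl1, which encodes FRA-1 (ENSMUSG00000024912, chromosome 19, 5447547 to 5455946, plus strand), was near the limit of measurement, with 8 to 42 counts per library. It stood at 0.216, 0.140 and 0.338 CPM in control, 0.417, 0.279 and 0.381 in Ep300 knockout, 0.122, 0.388 and 0.182 in Crebbp knockout, and 0.457, 0.378 and 0.374 in double knockout. The double-knockout libraries all lay above control, as they did for 30.1% of tested genes, but the log2 change of 0.78 ± 0.40 was not called (95% interval -0.08 to 1.63, adjusted p = 0.124). Its exons, 2033 bases in all, share 1163 bases with Ccdc85b on the opposite strand, which was at 0.689 to 1.14 CPM in control and 1.33 to 1.51 in double knockout. The strand setting of the authors' counting is not given in the sources used here, so reads of these 2 genes cannot be told apart in the shared stretch.

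Per kilobase of exon, Fosl2 and Fos made up most of the FOS family in all 12 libraries, and Fosl1 and Fosb the rest. Fosl2 took 45.5 to 52.0% of the family's CPM per kilobase in control, 58.8 to 60.8% with Ep300 lost, 52.2 to 58.1% with Crebbp lost and 56.4 to 58.1% with both lost. Fos took 42.3 to 47.6% in control, 35.7 to 36.9% in Ep300 knockout and 38.1 to 40.3% in double knockout. In Crebbp knockout Fos took 37.6 to 42.2%. The Fosl2 share ranges of all 3 knockout groups lay above that of control, and the Fos ranges below it. In Crebbp knockout these ranges nearly met those of control (52.2 against 52.0% for Fosl2, 42.2 against 42.3% for Fos). Neither gene was called there. The summed CPM of the family was 16.4 ± 2.35 in control (SD, n = 3), 44.0 ± 4.90 with Ep300 lost, 18.3 ± 1.87 with Crebbp lost and 106 ± 5.69 with both lost. Of the JUN family, Jun took 52.5 to 57.8% per kilobase in all 12 libraries. Junb took 15.0 to 17.0% in control and 20.6 to 23.7% in double knockout. Jund took 26.0 to 29.7% in control, 30.7 to 32.0% in Crebbp knockout and 23.7 to 26.3% in double knockout, where its range met that of control.

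**Figure D2:**
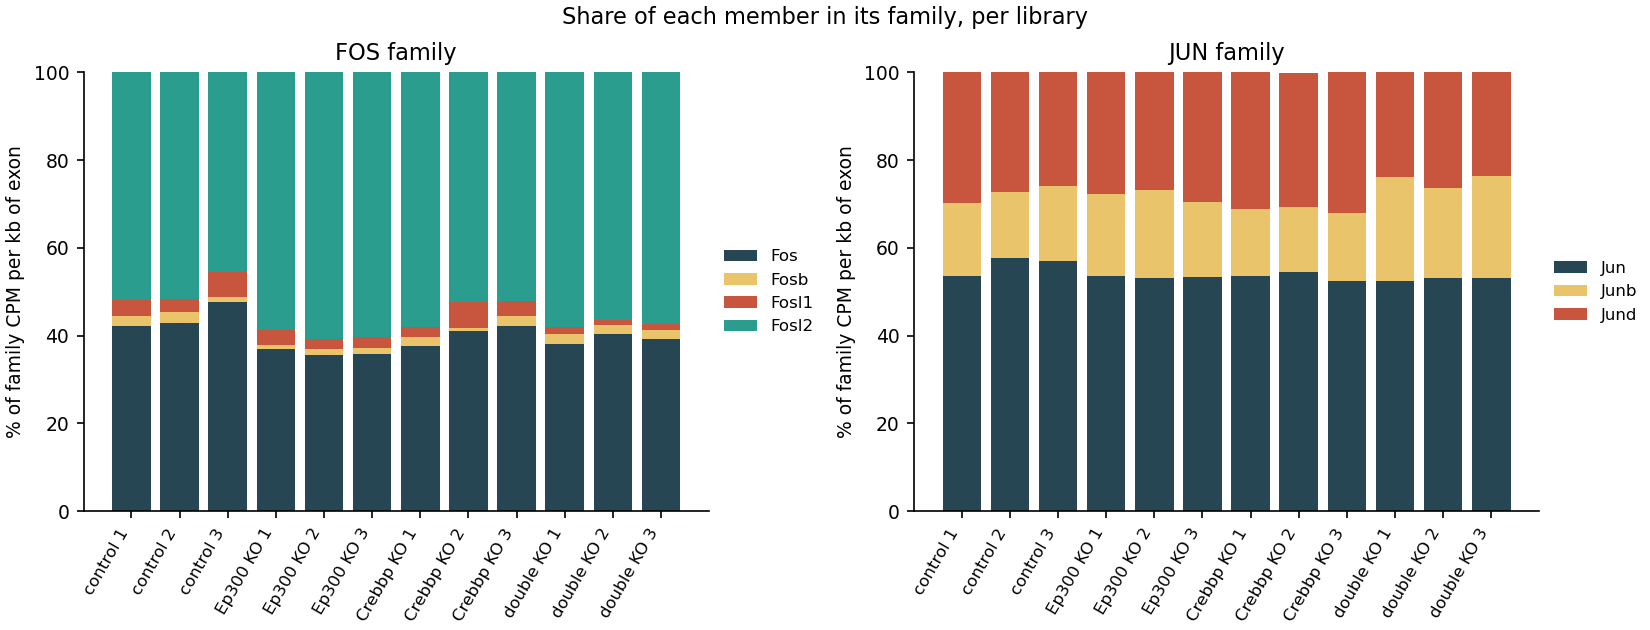
Stacked bars give the percent that each gene takes of its family's CPM per kilobase of exon, for the FOS family (left) and the JUN family (right), 1 bar per library. Fosl2 holds 45.5 to 52.0% of the FOS family in control and 56.4 to 58.1% in double knockout, and Jun holds 52.5 to 57.8% of the JUN family throughout.

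Jun, the partner of the FOS proteins and the classical AP-1 activator (ENSMUSG00000052684, chromosome 4, 95049034 to 95052222, minus strand), was the member with the highest CPM per kilobase in control, at 10.4. It read 32.2, 32.5 and 34.4 CPM in control, 39.7, 43.3 and 49.5 in Ep300 knockout, 39.7, 41.3 and 36.4 in Crebbp knockout, and 93.0, 97.3 and 94.1 in double knockout. Both single knockouts lay wholly above control and overlapped each other, and double knockout lay above all. Jun rose by 0.42 ± 0.08 in Ep300 knockout (adjusted p = 0.00144), and the double-knockout rise was 1.52 ± 0.08 (adjusted p = 5.49e-10). In Crebbp knockout it was at 0.24 ± 0.08 and not called (adjusted p = 0.112). The Crebbp value is called with Ep300-knockout replicate 3 left out (adjusted p = 0.046), as it is under offsets for exon length and GC content (adjusted p = 0.0275).

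Junb, which can oppose Jun at some promoters (ENSMUSG00000052837, chromosome 8, 84974484 to 84978718, minus strand), stood at 7.17, 6.07 and 7.40 CPM in control, 9.93, 11.7 and 11.5 in Ep300 knockout, 8.09, 8.11 and 7.75 in Crebbp knockout, and 30.3, 27.2 and 29.7 in double knockout. All 4 groups were separate, in the order control, Crebbp knockout, Ep300 knockout, double knockout, though the lowest step was not called. Junb rose by 0.68 ± 0.09 in Ep300 knockout (adjusted p = 6.99e-05), and the double-knockout rise was 2.08 ± 0.09 (adjusted p = 7.48e-11), and was at 0.21 ± 0.09 in Crebbp knockout (adjusted p = 0.255). Junb shares 173 exon bases with Prdx2 on the opposite strand. Prdx2 averaged 404 CPM in control and fell in double knockout by 0.44 ± 0.13 (adjusted p = 0.0143). Jun shares 232 exon bases with the opposite-strand gene Junos, which was at 0.299 to 0.822 CPM over all libraries. As for Fosl1, reads in these shared stretches, and in that of Jund below, cannot be told apart without the strand setting. The JUN family shares above used full exon lengths, these stretches included.

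Jund, the JUN protein with the least dependence on stimulation (ENSMUSG00000071076, chromosome 8, 70698949 to 70700616, plus strand), was at 9.33, 7.99 and 8.18 CPM in control, 10.8, 11.4 and 14.4 in Ep300 knockout, 12.0, 12.2 and 11.6 in Crebbp knockout, and 22.0, 25.3 and 22.0 in double knockout. The single knockouts overlapped each other (difference 0.03 ± 0.11, 95% interval -0.19 to 0.25, adjusted p = 0.897) and both lay above control. Jund rose by 0.52 ± 0.11 in Ep300 knockout (adjusted p = 0.00296), 0.49 ± 0.11 in Crebbp knockout (adjusted p = 0.0238) and, with both genes lost, 1.44 ± 0.11 (adjusted p = 3.1e-08). Jund shares 877 of its 1668 exon bases with the opposite-strand gene Gm11175, which was listed at 0 in all 12 libraries. The Crebbp call ends without control replicate 2 (adjusted p = 0.0639) or 3 (0.108), without Crebbp-knockout replicate 1 (0.0719) or 2 (0.0867), and with the replicate number as a block (0.0625).

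Atf3, a stress-induced bZIP protein that dimerizes with JUN proteins (ENSMUSG00000026628, chromosome 1, 191170296 to 191218039, minus strand), rose more in double knockout than both single changes together. It read 15.9, 18.3 and 17.6 CPM in control, 24.2, 23.4 and 22.7 in Ep300 knockout, 17.3, 15.2 and 15.3 in Crebbp knockout, and 77.5, 74.9 and 74.8 in double knockout. Control and Crebbp knockout overlapped, and the other groups were separate. Atf3 rose by 0.44 ± 0.07 in Ep300 knockout (adjusted p = 0.000457), and the double-knockout rise was 2.13 ± 0.07 (adjusted p = 4.56e-12), and was at -0.12 ± 0.07 in Crebbp knockout (adjusted p = 0.429).

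Egr1, a zinc-finger factor induced through SRF and ELK sites (ENSMUSG00000038418, chromosome 18, 34859823 to 34864984, plus strand), changed most of all members in each of the 3 comparisons with control. Its libraries stood at 3.02, 2.94 and 3.67 CPM in control, 14.7, 16.5 and 20.3 in Ep300 knockout, 7.07, 7.78 and 6.71 in Crebbp knockout, and 100, 104 and 101 in double knockout. The 4 groups did not overlap. Egr1 rose by 2.42 ± 0.12 in Ep300 knockout (adjusted p = 8.95e-10), 1.16 ± 0.12 in Crebbp knockout (adjusted p = 9.92e-05) and, with both genes lost, 4.98 ± 0.12 (adjusted p = 1.21e-13). Per kilobase of exon it had 0.716 CPM in control, under every member but Fosb and Fosl1, and 22.7 in double knockout, where only Jun and Atf3 stood higher.

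Ier2, an immediate-early nuclear protein (ENSMUSG00000053560, chromosome 8, 84661331 to 84662852, minus strand), was at 12.7, 14.1 and 12.8 CPM in control, 17.2, 18.8 and 19.1 in Ep300 knockout, 13.3, 14.4 and 13.0 in Crebbp knockout, and 34.9, 32.8 and 34.5 in double knockout. Control and Crebbp knockout overlapped, with a log2 difference of 0.04 ± 0.07 (95% interval -0.12 to 0.20, adjusted p = 0.806). Ier2 rose by 0.48 ± 0.07 in Ep300 knockout (adjusted p = 0.000242), and the double-knockout rise was 1.37 ± 0.07 (adjusted p = 7.19e-10).

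**Figure D3:**
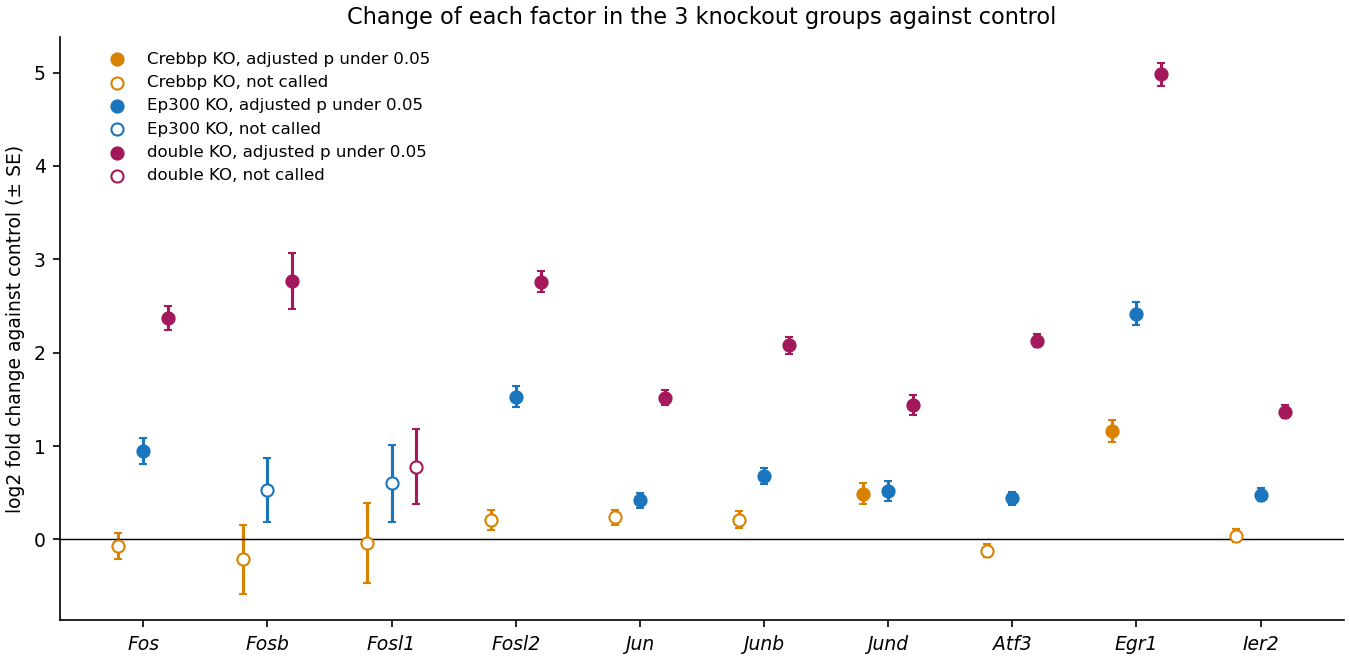
Log2 fold change against control with its standard error for each factor in Crebbp knockout, Ep300 knockout and double knockout; filled points have an adjusted p under 0.05 and open points do not. The double-knockout points run from 0.78 (Fosl1, open) to 4.98 (Egr1), and only Jund and Egr1 are filled in Crebbp knockout.

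The knockout groups were also set against each other. Between the single knockouts, 6 of 10 members were higher in Ep300 knockout than in Crebbp knockout, where 6.26% of tested genes were called higher. Fosl2 differed most, at 1.32 ± 0.11 on the log2 scale (adjusted p = 6.36e-07), then Egr1 at 1.26 ± 0.11 (adjusted p = 9.81e-07) and Fos at 1.02 ± 0.14 (adjusted p = 9.32e-05). Atf3 (0.56 ± 0.07), Junb (0.47 ± 0.09) and Ier2 (0.44 ± 0.07) differed by less, and Jun at 0.17 ± 0.08 was not called (95% interval 0.01 to 0.34, adjusted p = 0.174). Double knockout exceeded Ep300 knockout in 9 of 10 members, where 18% of tested genes were called higher, and Crebbp knockout in 9 of 10, where 21.4% were. Against Ep300 knockout the differences ran from 0.89 ± 0.07 (Ier2) to 2.56 ± 0.11 (Egr1), leaving out Fosl1 at 0.17 ± 0.38 (adjusted p = 0.766). Against Crebbp knockout they ran from 0.95 ± 0.10 (Jund) to 3.82 ± 0.11 (Egr1), and Fosl1 at 0.81 ± 0.40 was not called (adjusted p = 0.119) except without Crebbp-knockout replicate 2 (1.41, adjusted p = 0.017).

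The double-knockout change was compared with the sum of both single changes on the log2 scale. If single and double knockouts carry the same disruptions, this asks whether either loss has the same effect with and without the other. The labels do not say whether they do. Crebbp transcript was 0.89 ± 0.12 higher in double than in Crebbp knockout (edgeR adjusted p = 1.85e-05). Ep300 and Crebbp transcripts departed from the sum by 0.66 ± 0.14 (adjusted p = 0.00804) and 0.57 ± 0.16 (0.0353). Their part in the departures below was not tested. The double-knockout change was larger than the sum in 8 of 10 members, where 5.33% of tested genes departed upward. Over all genes 1897 departed in either direction, and leaving out a library moved that count to 1197 (control replicate 1), 2861 (control replicate 2), 1128 (control replicate 3), 1143 (Ep300-knockout replicate 2) or 1119 (double-knockout replicate 2). Fosb departed by 2.45 ± 0.46 (adjusted p = 0.00364), Atf3 by 1.81 ± 0.10 (adjusted p = 8.27e-08), Fos by 1.48 ± 0.19 (adjusted p = 0.000174) and Egr1 by 1.41 ± 0.16 (adjusted p = 5.94e-05). Junb departed by 1.18 ± 0.13, Fosl2 by 1.02 ± 0.15, Jun by 0.86 ± 0.11 and Ier2 by 0.85 ± 0.10. Jund was at 0.43 ± 0.15 (95% interval 0.12 to 0.75, adjusted p = 0.0778) and Fosl1 at 0.21 ± 0.57 (-1.02 to 1.43, adjusted p = 0.864). The Jund departure is called by DESeq2 (adjusted p = 0.0418), with no filter on low counts (0.0214), with the length and GC offsets (0.0323) and without Ep300-knockout replicate 3 (0.00847).

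On the CPM scale, which was described and not tested, the double-knockout means also lay above what the single changes would add up to. Egr1 had 102 CPM where its single changes add up to 21.2, Atf3 75.7 where they give 22.0, and Fosl2 88.3 where they give 39.7. Jun had 94.8 CPM against 50.3, and Jund 23.1 against 15.6.

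**Figure D4:**
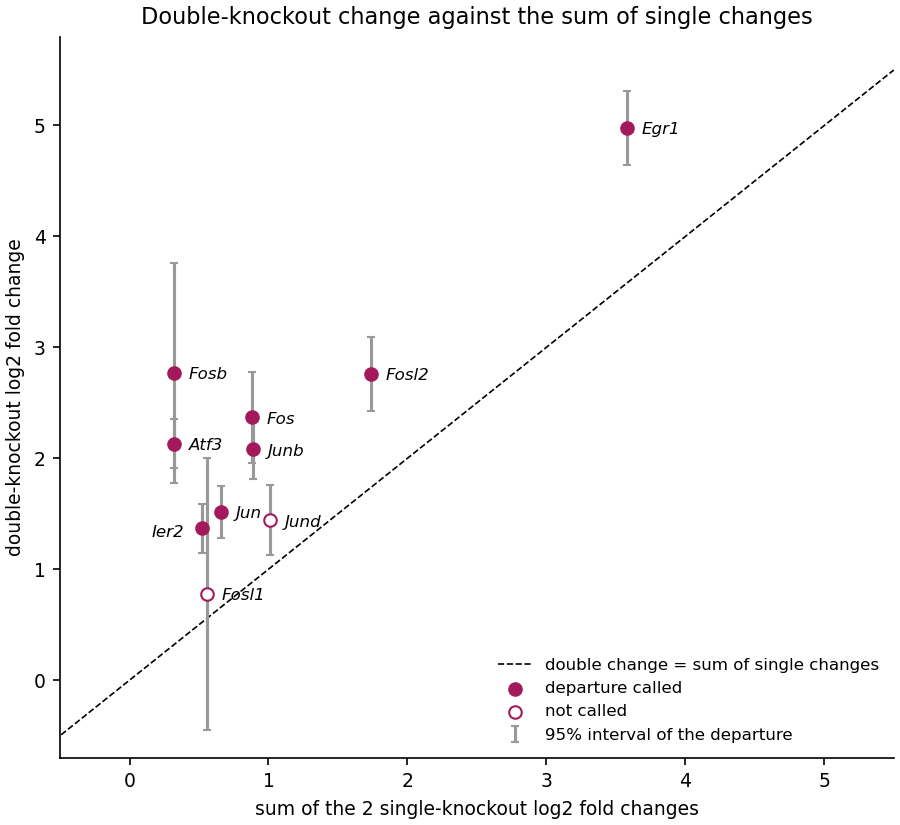
Double-knockout log2 fold change of each factor against the sum of its 2 single-knockout log2 fold changes; bars are the 95% interval of the departure from that sum, and the dashed line marks equality. All 10 points lie above the line, Jund and Fosl1 (open) with departures of 0.43 and 0.21 that were not called.

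Genes whose pattern lay closest to a member were sought among 9419 genes averaging 5 CPM or more, by the root mean square difference over 12 libraries of log2(CPM + 0.5) centred on control. Closest to Egr1 were Axl, a receptor tyrosine kinase, at 0.32 and Irf7, an interferon regulatory factor, at 0.36. For Fosl2 they were Tap1, a peptide transporter subunit (0.12), and Nab2, a corepressor that binds EGR proteins (0.13). Fos had Herc6 (0.13) and Tgfb1 (0.14), Jun had Mapre3 (0.09) and Cd274 (0.10), and Junb had Shisa5 (0.13) and Parp11 (0.14). Jund had the chromatin genes Kdm5b (0.12) and Brd2 (0.13), Atf3 had Tinagl1 (0.16), and Ier2 had Vamp1 (0.09) and the histone gene Hist2h2be (0.10). For Fosb, whose low level the added 0.5 compresses, they were Jam2 (0.22) and Hist2h2be (0.24). The log2 fold changes of Nab2 against control were 1.41 (Ep300 knockout), 0.30 (Crebbp knockout) and 2.79 (double knockout), beside 1.53, 0.21 and 2.76 for Fosl2.

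Of 34 further immediate-early genes, 31 were tested. In double knockout 24 rose, 4 fell and 3 were not called, with a median log2 fold change of 1.23, where 24.7% of all tested genes were called higher and 24.6% lower. Ccn1, a matricellular protein, rose by 3.79 ± 0.08 (adjusted p = 4.23e-14), its relative Ccn2 by 3.22 ± 0.10 (adjusted p = 1.28e-12) and Errfi1, a feedback inhibitor of the EGF receptor, by 2.25 ± 0.06 (adjusted p = 3.1e-13). The 4 that fell were Myc (-0.66 ± 0.08), the zinc-finger gene Klf6 (-0.41 ± 0.07), the pseudokinase gene Trib1 (-0.30 ± 0.10) and the antiproliferative gene Btg1 (-0.23 ± 0.08). The other EGR factors, named after their values were seen, were scarce in control: Egr2 rose from 0.221 to 3.59 CPM (3.97 ± 0.43, adjusted p = 2.55e-06) and Egr3 from 0.054 to 1.02 (4.13 ± 0.46, adjusted p = 3.17e-06). In Ep300 knockout 16 of the 31 rose and 5 fell, Klf4 (-0.61 ± 0.17) beside the 4 above, with a median of 0.43, where 7.27% of all tested genes were called higher and 8.83% lower. Ccn1 rose there by 2.34 ± 0.08, Ccn2 by 0.84 ± 0.10 and Errfi1 by 0.68 ± 0.06. In Crebbp knockout Ccn1 (0.46 ± 0.08, adjusted p = 0.00434) and Nfil3 (0.31 ± 0.07, adjusted p = 0.0347) rose, Klf4 fell (-0.85 ± 0.17, adjusted p = 0.0163) and 28 were not called, beside 1.52% of all tested genes called higher and 1.61% lower. Against the sum of single changes, 21 of 31 were higher and 1, Myc at -0.40 ± 0.11, was lower, beside 5.33% and 4.96% of all tested genes.

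Of the remaining bZIP partners of AP-1, 12 were tested, and 4 rose and 4 fell in double knockout, with a median of -0.10. Both counts are near the shares of all tested genes, 24.7% higher and 24.6% lower. Maff, a small MAF protein, rose from 2.19 to 8.48 CPM (1.96 ± 0.13, adjusted p = 8.9e-09) and Batf2 from 0.099 to 0.780 (3.00 ± 0.42, adjusted p = 2.89e-05). Atf2 (0.29 ± 0.07) and Atf7 (0.53 ± 0.12), which bind JUN proteins, rose by less. Atf4, the effector of the integrated stress response, fell from 376 to 293 CPM in double knockout (-0.36 ± 0.07, adjusted p = 0.000723), as did Batf3 (-1.07 ± 0.32), Maf (-0.25 ± 0.08) and Mafg (-0.20 ± 0.08). In Ep300 knockout Maff (1.00 ± 0.13) and Creb5 (0.62 ± 0.15) rose and Atf4 fell (-0.49 ± 0.07, adjusted p = 0.000168). These are 2 and 1 of the 12, beside 7.27% of all tested genes called higher and 8.83% lower. In Crebbp knockout Creb5 had the smallest p of the 12, at -0.38 ± 0.15, and was not called (adjusted p = 0.202).

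All 29 listed kinases and factors that act upstream of Fos, Egr1 and Jun were tested. In double knockout 11 rose, by at most 0.73, and 6 fell, by at most 0.39, with a median of 0.11, beside 24.7% of all tested genes higher and 24.6% lower. Srf, the serum response factor, rose from 18.6 to 30.9 CPM (0.73 ± 0.09, adjusted p = 1.06e-05), Elk1, its ternary complex partner, from 18.8 to 30.5 (0.70 ± 0.07, adjusted p = 5.1e-07), and Map2k4, a kinase of the JNK pathway, by 0.39 ± 0.06 (adjusted p = 6.66e-05). Srf (0.32 ± 0.09) and Elk1 (0.22 ± 0.07) also rose in Ep300 knockout, where no other gene of the list was called. These 2 of 29 are near the 7.27% of all tested genes called higher there. In Crebbp knockout Elk1 rose (0.28 ± 0.07) and Crem, a CREB relative, fell (-0.55 ± 0.12), beside 1.52% of all tested genes higher and 1.61% lower. Of 7 genes that act on JUN and FOS protein turnover, the ligase gene Itch (0.49 ± 0.06, adjusted p = 8.6e-06) and the kinase gene Gsk3b (0.29 ± 0.09, adjusted p = 0.0195) rose in double knockout. A count of 2 of 7 is near the 24.7% of all tested genes called higher. In the single knockouts Itch was at 0.15 ± 0.06 (Ep300, adjusted p = 0.105) and 0.14 ± 0.06 (Crebbp, adjusted p = 0.239).

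Of 32 listed genes known to be regulated through AP-1 sites, 25 were tested, and in double knockout 17 rose and 5 fell, with a median of 0.76, beside 24.7% of all tested genes higher and 24.6% lower. Il11, an interleukin-6 family cytokine, rose from 0.595 to 51.0 CPM (6.41 ± 0.14, adjusted p = 2.42e-14), Axl from 6.85 to 171 (4.65 ± 0.11, adjusted p = 1.02e-13) and the protease inhibitor gene Timp1 from 5.73 to 74.2 (3.69 ± 0.08, adjusted p = 2.9e-14). The 5 that fell were Anxa1 (-0.90 ± 0.12), Cd44 (-0.72 ± 0.07), Gja1 (-0.50 ± 0.07), Mt1 (-0.41 ± 0.07) and Vim (-0.28 ± 0.07). In Ep300 knockout 16 rose and 3 fell, beside 7.27% and 8.83% of all tested genes, with Il11 at 3.93 ± 0.14, Axl at 2.88 ± 0.11 and Timp1 at 2.19 ± 0.08. In Crebbp knockout 4 rose, among them Il11 (1.95 ± 0.15), Axl (0.93 ± 0.11) and Timp1 (0.76 ± 0.08), and Ccnd1 (-0.38 ± 0.07) and Hmga2 (-0.26 ± 0.06) fell. Of all tested genes, 1.52% were called higher there and 1.61% lower. The matrix metalloproteinase genes Mmp1a, Mmp3, Mmp9, Mmp10, Mmp12 and Mmp13, textbook AP-1 targets, did not pass the filter on low counts and averaged at most 0.128 CPM in any group.

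**Figure D5:**
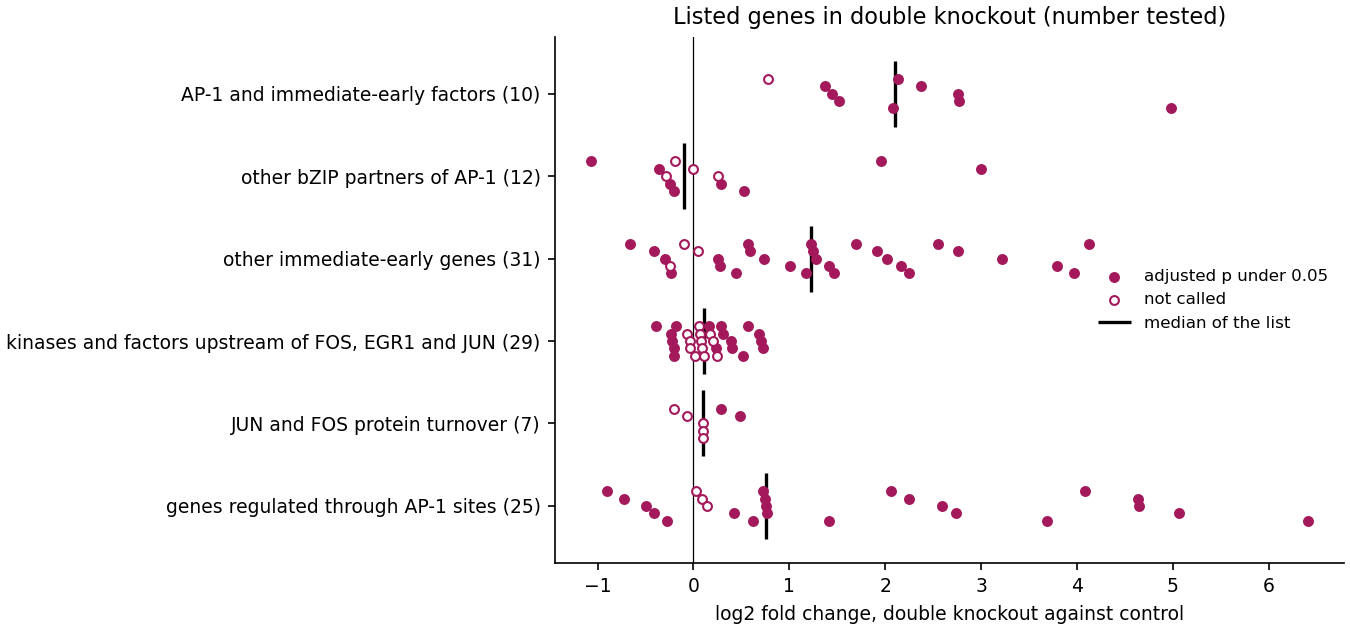
Log2 fold change in double knockout against control for the tested genes of each list, filled where the adjusted p was under 0.05, with the median of the list as a line. The medians are 2.10 for the AP-1 and immediate-early factors, 1.23 for the other immediate-early genes, 0.76 for genes regulated through AP-1 sites, and between -0.10 and 0.11 for the other 3 lists.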

How the data were processed

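RNA-seq libraries of B16F10 cells, 3 for each of 4 genotypes, were made with a stranded mRNA kit, per the labels' protocols. The deposited values are raw counts per Ensembl gene, made by the authors with bcl2fastq, HISAT2 and HTSeq on mm10, per the submitters' processing notes. The sources used here give neither versions nor the strand setting. Gene names and exon lengths came from GENCODE, and 54723 of 54752 genes matched. Counts were fitted over all 12 libraries with edgeR 4.0.16 (R 4.3.3): filterByExpr, TMM scaling and the robust quasi-likelihood test, with group as the only term, 18434 genes tested and Benjamini-Hochberg adjustment over them. SE is the log2 fold change over the root of F. CPM values use the TMM-scaled library sizes. Libraries held 64257251 to 85604243 counts, and the biological coefficient of variation was 9.46%. The procedure was tested on simulated data. Alternatives were DESeq2 1.42.0, limma-voom 3.58.1, other scaling and filters, fewer groups, a replicate block, offsets for GC content and exon length, and the omission of each library. All members were named, with the 3 genes of smallest adjusted p in each other list, and 2 genes most like each called member, apart from a few that are not reported here. The members and lists were chosen with earlier results of these data known.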

Additional observations from a re-analysis of the deposited data

Results flagged for a closer look

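For 8 of the 10 factors the double-knockout change differed from the sum of both single changes, by the interaction term of the edgeR fit. The departures on the log2 scale were 1.48 for Fos, 2.45 for Fosb, 1.02 for Fosl2, 0.86 for Jun, 1.18 for Junb, 1.81 for Atf3, 1.41 for Egr1 and 0.85 for Ier2, where 5.33% of tested genes departed upward. The groups held 3 libraries, so single libraries were not tested for standing apart.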

How the results depend on the processing

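Of 70 pairs of a member and a comparison, 51 were called, and 50 of these were called in all 20 alternatives. The exception was Jund in Crebbp knockout, and its loss with the replicate block left 1 member called there. The block changed no other call among the members. The count in Crebbp knockout was 1 to 3 when each library was left out in turn. It was 3 without Ep300-knockout replicate 3, where Jun was also called. Replicate numbers did not pair the libraries: 5 of 18 same-numbered pairs had a correlation of deviations over 0.1 (range -0.47 to 0.28), and 1 of 12 libraries was closest to its own number. Changes of sign were found only for values that were not called. With the offsets, which were chosen after seeing the data, Ier2 in Crebbp knockout was at -0.02 and Jund between the single knockouts at -0.03. With each library left out, the Crebbp-knockout values spanned -0.19 to 0.03 for Fos, -0.48 to 0.15 for Fosb, -0.63 to 0.33 for Fosl1 and 0.00 to 0.09 for Ier2. Jund between the single knockouts spanned -0.11 to 0.11, and the departure of Fosl1 -0.16 to 0.80. The cause was not tested. Over all genes in Crebbp knockout, 577 were called, against 1279 by DESeq2, 1270 with no filter, 1152 with the offsets, 321 with the block, 257 with only the groups compared and 214 to 774 with each library left out. For the departure from the sum, 1897 were called, against 1119 to 2861 with each library left out. Fosl1 was not tested under the filter of 1 CPM, and it had 8 to 42 counts per library.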

Other observations

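Some immediate-early genes, named after their values were seen, moved differently in single and double knockout. Klf4 fell in both single knockouts (-0.61 ± 0.17 and -0.85 ± 0.17 on the log2 scale, SE, edgeR) and departed upward from their sum by 1.22 ± 0.24 (adjusted p = 0.0052). Trib1 fell by 0.79 ± 0.10 in Ep300 knockout and by 0.30 ± 0.10 in double knockout, with a departure of 0.69 ± 0.14 (adjusted p = 0.00513). The orphan nuclear receptor gene Nr4a1 rose in double knockout by 1.23 ± 0.10 (adjusted p = 7.32e-08), with a departure of 1.33 ± 0.14 (adjusted p = 2.78e-05). Plk2, a polo-like kinase gene, rose by 1.25 ± 0.07, with a departure of 1.13 ± 0.10 (adjusted p = 9.85e-06).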
